A study of Caenorhabditis elegans with 41 samples.

Results

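A set of 10 genes of *Caenorhabditis elegans* that encode RNA-binding proteins of the oocyte and early embryo was followed across mRNA-seq of embryos, larvae and young adults. The 10 genes were taken by identifier from the 20390 genes listed: mex-1 (W03C9.7), mex-3 (F53G12.5), mex-5 (W02A2.7), mex-6 (AH6.5), pie-1 (Y49E10.14), pos-1 (F52E1.1), oma-1 (C09G9.6), oma-2 (ZC513.6), spn-4 (ZC404.8) and puf-3 (Y45F10A.2). The study asked how genes respond when a chromosome segment is duplicated or lost, and 23 mRNA-seq libraries from 5 strains enter here as 8 groups. A further 18 DNA samples of the 41 in the series were not analysed here.

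All strains carried a rearrangement or a transgene, and no N2 wild-type mRNA-seq was used here. SP117 carries the duplication mnDp10 (X;I), a segment of X attached to chromosome I, in an unc-3(e151) background, and was sampled as embryos (n = 2), L2-L3 larvae (n = 4) and young adults (n = 3). BC4289 [sDp10 (IV;X)] has a segment of IV attached to X and was sampled as L2-L3 larvae (n = 2) and young adults (n = 3). TY1916 carries yDp11 (X;IV), a segment of X attached to IV, with the X-linked alleles lon-2(e678) and unc-9(e101) (embryos, n = 3). VC100 [unc-112(r367) V; gkDf2 X] has a deletion on X (embryos, n = 3). OP37 carries the integrated, multicopy fosmid transgene wgIs37, which holds pha-4 fused to TY1::EGFP::3xFLAG together with an unc-119(+) marker, and is labelled embryos (n = 3). The tissue was whole worms throughout. Embryos were of mixed stages, released by bleaching gravid adults. Larvae were grown for about a day from starved L1, and young adults were collected a day later.

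Early embryos of this species run on mRNA loaded by the mother. RNA-binding proteins decide which of these mRNAs are translated, where and when, and so set up the difference between the germ line and the soma. MEX-1, MEX-5, MEX-6, PIE-1, POS-1, OMA-1 and OMA-2 have CCCH zinc fingers. MEX-5 and MEX-6 act in the anterior cytoplasm and MEX-1, POS-1 and PIE-1 in the posterior, germline cells, where PIE-1 also represses transcription. OMA-1 and OMA-2 act redundantly in the last steps of oocyte maturation and are destroyed after the first division. MEX-3 is a KH-domain protein, SPN-4 has an RNA recognition motif, and PUF-3 belongs to the Pumilio and FBF family. In whole worms, fewer germ cells or embryos and less RNA per cell cannot be told apart.

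The genes lie on 5 chromosomes in the WS220 coordinates of the deposited files, and 0 of 10 lie on X, which holds 13.8% of the 20327 genes used. On chromosome II, mex-1 spans 11968572-11972285 and mex-6 spans 9524112-9526307. mex-3 spans 127296-134271 on I, and pie-1 spans 12426760-12429076 on III. On IV, oma-1 spans 8888959-8890987, mex-5 spans 13353691-13356087 and puf-3 spans 13510281-13512144. On V, pos-1 spans 8414064-8415235, oma-2 spans 8029417-8031194 and spn-4 spans 6783168-6784905. Each row is a whole annotated gene, and a value of status OK was deposited for all 10 genes in all 23 libraries.

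Levels are FPKM, the fragments mapped to a gene, scaled to the length of its transcript and the size of the library, as deposited. Read totals are not known. The depth estimated from the lowest values, relative to the deepest library (SP117 embryo replicate 1), was 11.5% in SP117 L2-L3 replicate 2 and 28.4% or more in every other library. Summed FPKM per library ran from 890473 to 1550598. Oocyte markers (rme-2, cbd-1, perm-2 and others, 7 of a list of 8 used) summed to 4471.9-6270.9 FPKM in young adults, 43.8-332.4 in the SP117, TY1916 and VC100 embryos and 13-22.9 in larvae. Markers of early zygotic transcription (14 genes, such as end-1 and pes-10) summed to 168.5-634.2 in those embryos, 13.8-26.5 in larvae and 14.8-26.9 in young adults. The 3 OP37 libraries, labelled embryos, went against that label: the zygotic markers summed to 18.0-39.6 FPKM there, with 6 of the 14 at 0 in all 3 libraries (med-1, tbx-37, tbx-38, ceh-51, hlh-27 and sdz-31). Names deposited with these libraries read L3. They are called the libraries labelled OP37 embryos below, and no group mean of embryos includes them.

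**Figure D1:**
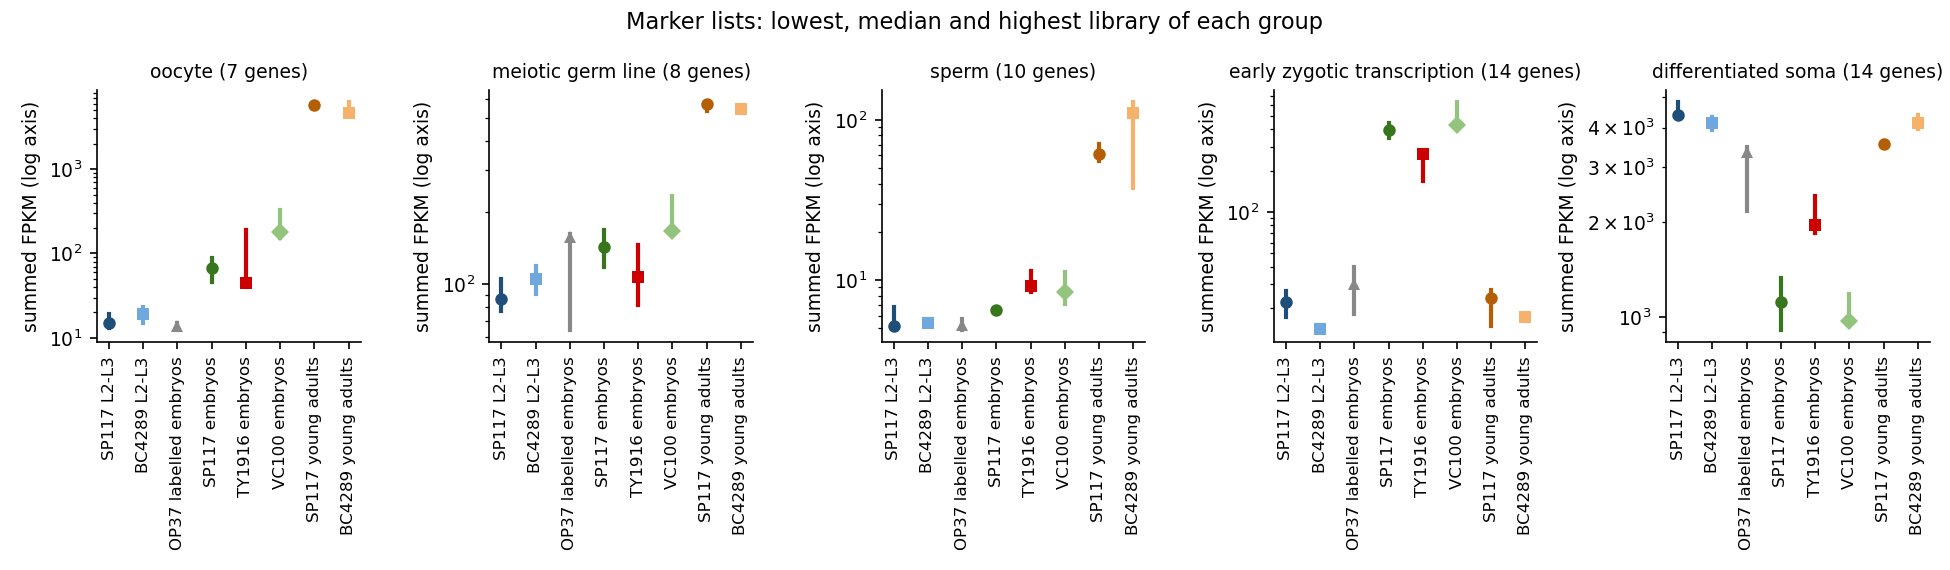
Summed FPKM (log axis, a separate scale in each panel) of 5 marker lists in the 8 groups; symbols are medians over libraries and lines run from the lowest to the highest library. Oocyte markers lie at 4471.9 or more in young adults only, early zygotic markers at 168.5 or more in the SP117, TY1916 and VC100 embryos only, and the libraries labelled OP37 embryos overlap the larvae for both.

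Each of the 10 genes stood higher in young adults and in the embryos of SP117, TY1916 and VC100 than in larvae. The levels were uneven: mex-3 in larvae ranked above 78.5% to 84.4% of the genes used, and puf-3 in those embryos above 60.3% to 86.7%. Together the 10 genes took up 2267.1-3012.0 TPM (a transcript's share of the library after length scaling, with equal totals in all libraries) in the 6 young adult libraries, 865.2-2878.4 in the 8 embryo libraries of SP117, TY1916 and VC100, and 33.5-50.4 in the 6 larval libraries. The libraries labelled OP37 embryos held 47.8-81.4 TPM, and their lower end falls in the larval range. These libraries do not separate mRNA made by the mother from mRNA made in the embryo.

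**Figure D2:**
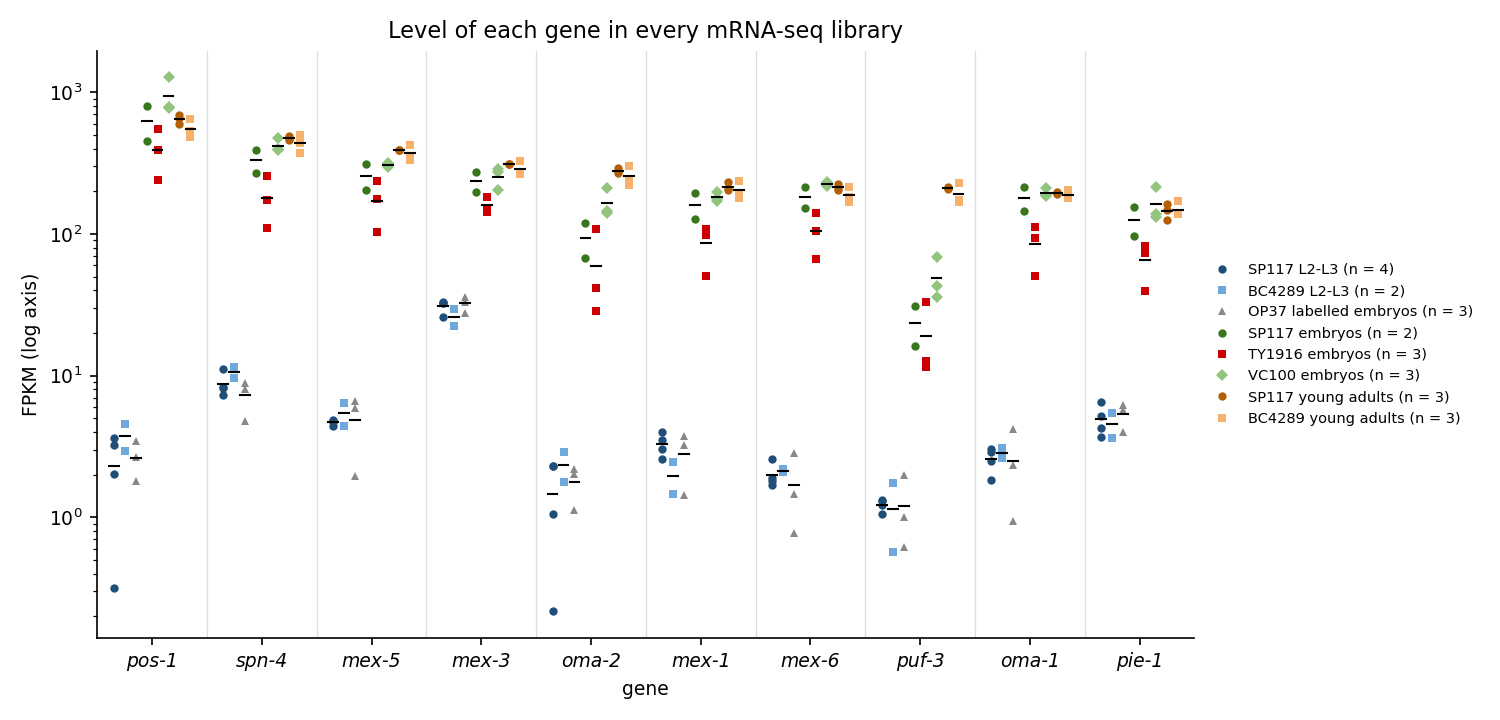
FPKM (log axis) of the 10 genes in each of the 23 libraries; points are libraries, short black lines are group means, and genes are ordered by their mean in SP117 young adults. All 10 genes lie at 125.0 FPKM or more in every adult library. In larvae mex-3, at 22.5-33.3, stands above the other 9, and within each embryo library of SP117, TY1916 and VC100 puf-3, at 11.6-68.7, is the lowest.

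The first 4 places in the order of the mean levels were the same in young adults and in the embryos of SP117, TY1916 and VC100. pos-1 led in all 5 of these groups, followed by spn-4, mex-5 and mex-3. The lower places differed: oma-2 held place 5 in both adult groups and place 8 or 9 in the embryo groups. puf-3 held place 7 or 8 in adults and place 10 in the embryo groups. In SP117 young adults pos-1 stood at 654.3, 600.4 and 686.7 FPKM, spn-4 at 461.5, 494.5 and 476.0, mex-5 at 393.1, 392.7 and 391.3, and mex-3 at 309.5, 311.8 and 310.3. These 4 genes and oma-2, next at 271.1-293.9, had ranges that did not overlap. Below them mex-1 (216.1 ± 14.8, SD, n = 3), mex-6 (213.5 ± 12.3) and puf-3 (210.9 ± 3.43) overlapped, and oma-1 (196.0 ± 3.03) and pie-1 (145.0 ± 19) came last. In BC4289 young adults the neighbours in the order overlapped except mex-5 and mex-3.

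pos-1 was among the most abundant mRNAs of these libraries. In the 2 groups of young adults it ranked above 98.46% or more of the genes used, and in VC100 embryos, where it reached 1274.8, 772.1 and 783.0 FPKM, above 98.97% or more. Its ratio to spn-4 within a library was 1.21-1.44 in young adults and 1.69-2.68 in the embryos of SP117, TY1916 and VC100, with no overlap. In larvae the ratio was 0.0389-0.494, so that spn-4 was the more abundant in all 6 larval libraries.

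mex-3 led in larvae. It stood at 26.1, 33.3, 32.8 and 32.4 FPKM in SP117 L2-L3 larvae and at 29.4 and 22.5 in BC4289, above 78.5% to 84.4% of the genes used. The next gene, spn-4, reached 7.32-11.1 and 9.56-11.6 FPKM in the 2 strains, and the other 8 genes stayed at 6.54 or below. The lowest values of any gene were those of pos-1 (0.319) and oma-2 (0.217) in SP117 L2-L3 replicate 2, the library of the lowest estimated depth. In the other 3 libraries of that group pos-1 stood at 3.61, 3.25 and 2.03 and oma-2 at 1.05, 2.29 and 2.31. puf-3 was lowest on average in every larval group (1.23 ± 0.119 FPKM, SD, n = 4, in SP117).

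From larvae to young adults all 10 genes rose, in both strains. In SP117 the log2 ratio of FPKM + 0.1 ran from 3.32 (mex-3) to 8.47 (pos-1), with a median of 6.29, against a median of -0.15 over all 13593 genes tested. limma with Benjamini-Hochberg adjustment gave adjusted p values of 3.64e-08 to 2.72e-05. Of all genes tested in SP117, 36.7% were higher and 40.1% lower in young adults, so a call alone was common. pos-1 and oma-2 rested in part on larval replicate 2: without it their ratios were 7.76 and 7.22. In BC4289 the 10 ratios ran from 3.47 (mex-3) to 7.42 (puf-3), with a median of 6.25 and adjusted p of 2.44e-05 to 0.00022, where 36.7% of genes were higher and 37.3% lower. The puf-3 ratio was 6.69 without BC4289 larval replicate 2 and 8.15 without replicate 1.

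mex-5 and mex-6, the anterior CCCH pair, rose by 6.35 ± 0.100 (SE) and 6.70 ± 0.169 on the log2 scale in SP117 (adjusted p = 3.64e-08 and 2.26e-07, limma). mex-5 went from 4.89, 4.41, 4.81 and 4.71 FPKM in the larval libraries to 391.3-393.1 in the adult ones. mex-6 went from 1.68-2.56 to 203.3-227.1. In BC4289 the same pair rose by 6.09 ± 0.196 and 6.40 ± 0.138.

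The genes of the posterior lineage spanned a wider range. pos-1 rose by 8.47 ± 0.709 in SP117 and 7.19 ± 0.227 in BC4289, mex-1 rose by 6.01 ± 0.168 and 6.65 ± 0.251. pie-1, the transcriptional repressor of the germline cells, rose least of the CCCH genes, by 4.88 ± 0.213 and 5.02 ± 0.212, from 3.66-6.54 FPKM in the SP117 larvae to 125.0-162.8 in the adults.

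Of the oocyte maturation pair, oma-2 rose by 7.86 ± 0.672 and oma-1 by 6.23 ± 0.188 in SP117 (adjusted p = 2.72e-05 and 4.01e-07, limma). oma-1 went from 2.88, 1.82, 3.05 and 2.50 FPKM in larvae to 195.7, 193.1 and 199.1 in adults. oma-2 was the higher of the pair in all 6 adult libraries and the lower in all 6 larval ones. Among the genes without CCCH fingers, puf-3 rose by 7.32 ± 0.136, spn-4 by 5.77 ± 0.153 and mex-3 by 3.32 ± 0.116. The mex-3 ratio is a fold of 9.98, against 29.5 to 354.0 for the other 9, and its larval level is the highest of the 10.

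The 2 strains were compared directly. The change from larvae to adults did not differ between SP117 and BC4289 at the threshold for any of the 10 genes (adjusted p of 0.711 or more, limma interaction term, where 0.0291% of all genes were called). The interaction estimates ran from -0.64 (mex-1) to 1.28 ± 0.946 (pos-1), the latter 0.57 without SP117 larval replicate 2. In young adults alone the log2 ratio of SP117 to BC4289 ran from -0.04 to 0.23, and in larvae from -1.04 ± 0.876 (pos-1, -0.33 without SP117 larval replicate 2) to 0.74 ± 0.328 (mex-1), with 0 of 10 genes called in either (0.109% and 0.0389% of all genes called) and 0 of 10 at an unadjusted p under 0.05. oma-1, mex-5 and puf-3, on the chromosome that gave the BC4289 segment, had adult ratios of 0.05, 0.08 and 0.16. Whether these genes lie inside the segment was not determined here.

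All 10 genes were also higher in SP117 embryos than in SP117 larvae. The log2 ratios ran from 2.91 ± 0.208 (mex-3) to 8.37 ± 0.843 (pos-1) with a median of 5.64, against 0.32 over all genes (adjusted p of 4.5e-06 to 0.000332, limma). Without larval replicate 2 pos-1 had a ratio of 7.66 and oma-2 5.59 in place of 6.23. Of all genes tested, 40.2% were higher and 28.8% lower in embryos. puf-3 had a ratio of 4.08 ± 0.359 here, against 7.32 from larvae to adults.

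Embryos and young adults of SP117 differed for 4 of the 10 genes, all lower in embryos, where 30.7% of all genes were lower and 40.6% higher. The median of the 10 was -0.43, against 0.23 over all genes. puf-3 fell by 3.23 ± 0.264 on the log2 scale, a level 9.41-fold lower (adjusted p = 9.94e-05, limma). It stood at 213.8, 207.1 and 211.7 FPKM in the adult libraries and at 16.1 and 31 in the embryo libraries. oma-2 fell by 1.63 ± 0.237, or 3.11-fold (adjusted p = 0.00106), from 276.3, 293.9 and 271.1 FPKM to 67.8 and 120.0. mex-5 fell by 0.64 ± 0.189 and spn-4 fell by 0.55 ± 0.175 (adjusted p = 0.0218 and 0.0275).

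The other 6 genes did not pass the test. Their log2 ratios were -0.45 (mex-1), -0.41 (mex-3), -0.24 (mex-6), -0.23 (pie-1), -0.15 (oma-1) and -0.10 (pos-1), with adjusted p of 0.0533 to 0.737. The ratios of mex-6, pie-1, oma-1 and pos-1 lay above 0 with TPM and without embryo replicate 1. The embryo libraries differed from each other: all 10 genes were lower in replicate 1 than in replicate 2, with pos-1 at 456.2 and 800.6 FPKM. Without embryo replicate 2 all 10 genes were called lower, and with quantile normalization 7 of 10. The calls of mex-5 and spn-4 were lost when any 1 of the 3 adult libraries was left out, with TPM in place of FPKM and in the fit of all 23 libraries, in each of which 2 of 10 genes were called. The calls of puf-3 and oma-2 held in every alternative run. All young adult libraries carry one library-code prefix and the embryo and larval libraries of SP117, TY1916, VC100 and BC4289 another, so stage and whatever the prefix stands for cannot be told apart.

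**Figure D3:**
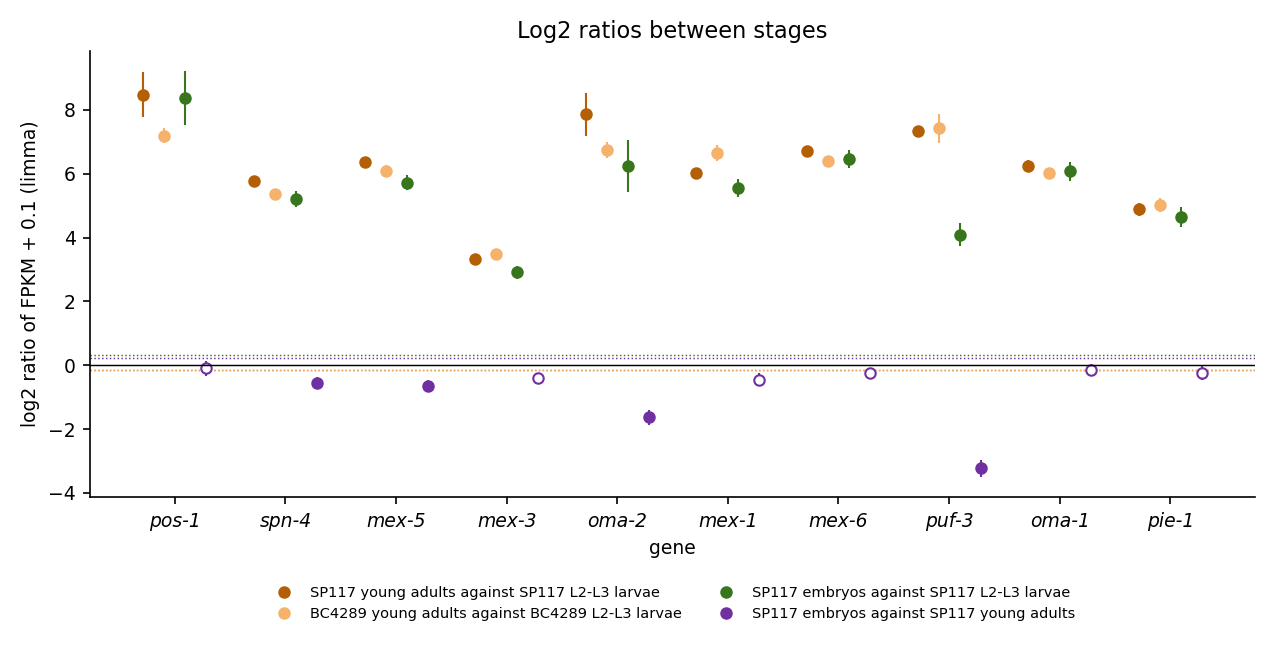
Log2 ratios of FPKM + 0.1 (limma) for the 10 genes in 4 stage comparisons; bars are standard errors, filled circles passed an adjusted p of 0.05, open circles did not, and dotted lines are the medians of all genes tested. The 10 genes lie between 2.91 and 8.47 against larvae in both strains, whereas between embryos and adults puf-3 (-3.23) and oma-2 (-1.63) stand below the other 8.

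Ratios of 2 genes taken within a library do not depend on the scaling of that library. The ratio of oma-2 to oma-1, which encode proteins of overlapping function, was 1.41, 1.52 and 1.36 in SP117 young adults and 1.32, 1.48 and 1.24 in BC4289. It was 0.469 and 0.555 in SP117 embryos, 0.566, 0.447 and 0.961 in TY1916 and 0.999, 0.791 and 0.742 in VC100. No embryo library reached an adult one, and oma-1 was the more abundant in all 8 embryo libraries. In SP117 the mean log2 of this ratio was 1.49 lower in embryos than in adults, and the exact permutation p of 0.1 (two-sided) is the smallest that 2 against 3 libraries allow.

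The ratio of puf-3 to oma-1 was also lower in embryos than in adults, at 0.111-0.326 in the 8 embryo libraries and 0.906-1.12 in the 6 adult libraries, with 0.215-0.728 in the 6 larval libraries. The ratio of mex-6 to mex-5 went the other way: 0.503-0.580 in adults, 0.594-0.773 in embryos and 0.341-0.533 in larvae. The adult and embryo ranges did not overlap for either ratio, and for both the exact permutation p between SP117 embryos and adults was 0.1, again the smallest possible. Of 9 ratio tests computed, 6 could not go below 0.1. The 3 between SP117 adults and larvae could reach 0.0286, and their exact permutation p ran from 0.0571 to 0.0857. Oocyte markers moved with stage in the same libraries, and their part in these ratios was not tested.

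**Figure D4:**
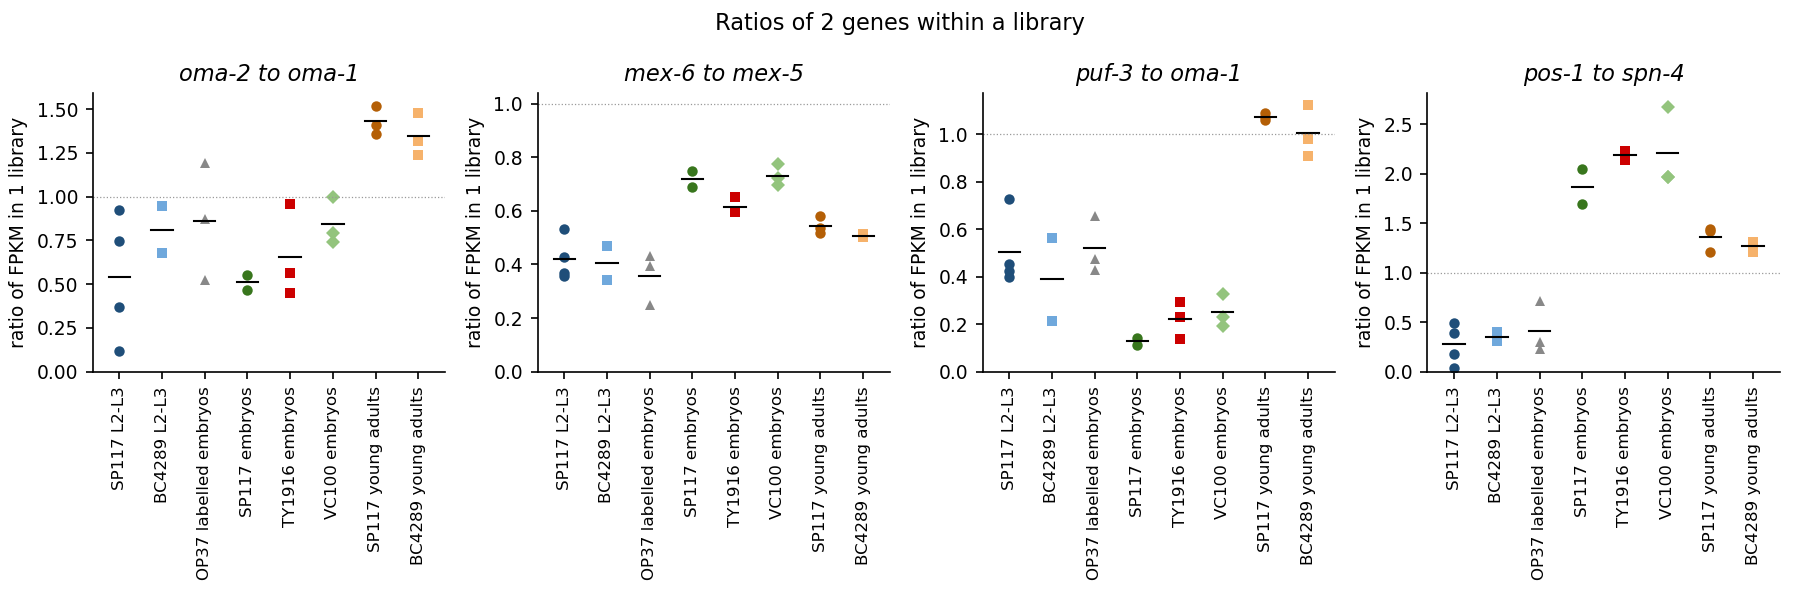
Ratio of the FPKM of 2 genes within each library (linear axes from 0) in the 8 groups; points are libraries, black lines are group means and the dotted line marks 1. oma-2 to oma-1 lies at 1.24 or more in every adult library and at 0.999 or less in the embryos of SP117, TY1916 and VC100; puf-3 to oma-1 lies at 0.906 or more in adults and at 0.326 or less in those embryos.

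Between embryos of different strains, 8 of the 10 genes were lower in TY1916 than in VC100, where 8.76% of all 13118 genes tested were lower. The log2 ratios of the 10 ran from -1.68 (oma-2) to -0.66 (mex-3) with a median of -1.28, against 0.11 over all genes. The called genes had adjusted p of 0.0271 to 0.0447 (limma). mex-3 (-0.66 ± 0.213) and mex-5 (-0.92 ± 0.307) did not pass, at 0.0537 and 0.0571. In all 10 genes the highest TY1916 library lay below the lowest VC100 library, which held for 24.2% of all genes. In TPM, a comparison added after the data were seen, this held for 8 of the 10, not for mex-3 and mex-5, and for 18.5% of all genes.

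VC100 replicate 1 had a summed FPKM of 1271436, against 949456 and 948190 in the other VC100 libraries. oma-2 stood at 28.5, 41.9 and 108.2 FPKM in TY1916 and at 210.5, 145.6 and 139.6 in VC100, a log2 ratio of -1.68 ± 0.469 (adjusted p = 0.0380). spn-4 stood at 109.9, 174.9 and 256.6 against 475.3, 391.7 and 397.6, a ratio of -1.30 ± 0.314 (adjusted p = 0.0272). pie-1 stood at 39.4, 73.6 and 82.0 against 216.1, 137.5 and 131.1, a ratio of -1.34 ± 0.336 (adjusted p = 0.0293). TY1916 replicate 1 was the lowest and replicate 3 the highest for all 10 genes, so the libraries of this group differed in the 10 genes together.

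The remaining called genes were close to these in size. pos-1 fell by 1.30 ± 0.352, oma-1 by 1.26 ± 0.308, mex-6 by 1.17 ± 0.283, mex-1 by 1.15 ± 0.307 and puf-3 by 1.47 ± 0.440 on the log2 scale. The 8 calls rested on few libraries: 0 of 10 genes were called without TY1916 replicate 1, without TY1916 replicate 2, without VC100 replicate 2 or without VC100 replicate 3, and 9 of 10 were called without TY1916 replicate 3 or without VC100 replicate 1, all ratios staying below 0. With quantile normalization 3 of 10 were called and with median-centred libraries 10 of 10.

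Other sets of genes moved in the same libraries. Of the lists described below, 9 of 24 germline translational regulators, 5 of 11 genes of egg activation and 5 of 10 target mRNAs were lower in TY1916 and 0 higher. Of all genes tested 8.76% were lower, the background of each count of lower genes in this paragraph. The early zygotic markers summed to 168.5-278.9 FPKM in TY1916 and 393.1-634.2 in VC100, with 7 of 14 lower and 0 higher. Oocyte markers summed to 43.8-188.7 and 150.7-332.4, with 1 of 7 lower, near the share of all genes. Markers of differentiated soma (14 genes, such as unc-54 of body wall muscle) summed to 1856.0-2431.8 in TY1916 and 938.4-1188.4 in VC100, with 8 of 14 higher and 0 lower, where 19.1% of all genes were higher. The embryos were of mixed stages, and the part of stage composition in the 10 genes' ratios was not tested.

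mex-5 and puf-3 lie 0.158 Mb apart on the right arm of chromosome IV, the arm on which the study's text names a further change in TY1916. Copy number was not analysed here. The 29 other genes tested from mex-5 to puf-3 had a median log2 ratio of 0.43 in TY1916 against VC100, with 20 of 29 above 0. The median over all genes was 0.11. Of these 29 genes 7 were called higher and 1 lower, where 19.1% and 8.76% of all genes were. In TY1916 against SP117 embryos 28 other genes of the interval had a median of 0.53, against 0.12 over all genes. Of these 28 genes 24 lay above 0, with 3 called higher and 0 lower, where 6.31% and 0.439% of all genes were. mex-5 and puf-3 themselves had ratios of -0.92 and -1.47 against VC100, and of -0.63 and -0.39 against SP117.

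In FPKM the means of all 10 genes in SP117 embryos lay between those of TY1916 and VC100. In TPM the SP117 means of oma-1, mex-3 and mex-1 (194.8, 255.3 and 174.1) lay above those of VC100 (186.0, 249.9 and 173.4). Against VC100 all 10 log2 ratios were below 0, from -1.08 ± 0.405 (puf-3) to -0.11 ± 0.276 (mex-3), and 0 of 10 genes were called (0.065% of all genes called, limma), with 2 of 10 lower at an unadjusted p under 0.05, against 3.61% of all genes. TY1916 against SP117 gave ratios of -1.13 ± 0.358 (oma-1) to -0.39 ± 0.498 (puf-3) and 0 of 10 called lower (0.439% of all genes lower), with 6 of 10 lower at an unadjusted p under 0.05, against 6.5% of all genes. The count of 0 in TY1916 against SP117 changed with the replicate number as a block, a fit given with its limits in the last paragraph. The 3 comparisons share their libraries pairwise.

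**Figure D5:**
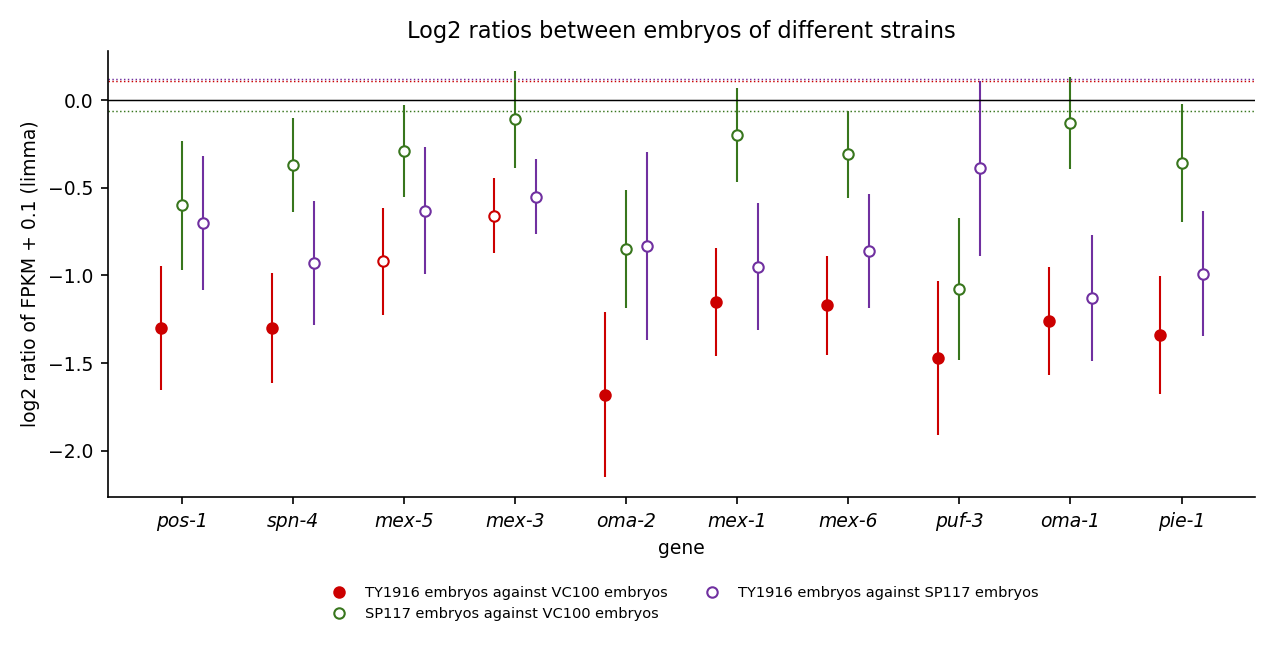
Log2 ratios of FPKM + 0.1 (limma) for the 10 genes between embryos of 3 strains; bars are standard errors, filled circles passed an adjusted p of 0.05, open circles did not, and dotted lines are the medians of all genes tested. TY1916 lies below VC100 in all 10 genes, from -1.68 to -0.66, with 8 filled circles.

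The libraries labelled OP37 embryos held the 10 genes at larval levels. mex-3 stood at 33.3, 35.9 and 27.8 FPKM, spn-4 at 8.92, 8.03 and 4.79, and puf-3 at 0.997, 1.99 and 0.617. Against VC100 embryos all 10 genes were lower, by log2 ratios of -8.44 (pos-1) to -2.96 (mex-3), where 38.2% of all genes were lower (adjusted p of 1.85e-06 to 6.01e-05, limma). Against the mean of both larval groups the ratios ran from -0.44 ± 0.252 (spn-4) to 0.19 ± 0.193 (mex-3), and 0 of 10 genes were called or reached an unadjusted p under 0.05, where 10.7% of all genes were called. With TPM in place of FPKM the median of all genes moved from -0.01 to 0.63 in this comparison and mex-3 was called higher, the 1 call among the 10.

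Other translational regulators of the germ line were read from a list of 25 genes, of which 24 were used. From SP117 larvae to adults 22 rose and 0 fell (median 3.70), against 36.7% of all genes higher and 40.1% lower. From SP117 adults to embryos 18 fell and 2 rose (median -1.75), against 30.7% of all genes lower and 40.6% higher. These shares are the background of each list that follows, in the same comparisons. puf-5, a Pumilio-family repressor of the oocyte, went from 1.12 FPKM in larvae to 460.8 in adults (log2 ratio 8.67, adjusted p = 9.72e-07, limma) and stood at 73.8 in embryos. nos-2, a Nanos homologue, rose by 8.24 and stood at 137.1 in adults and 83.9 in embryos. It averaged 0.377 FPKM in SP117 larvae, under the 1 FPKM required for testing, and entered the larva-to-adult test only through the adults. Its call, which is among the 22, could therefore only be higher and is given as a description. At the lower end gld-2, a cytoplasmic poly(A) polymerase, rose by 0.96 and lin-41, a TRIM-NHL protein of the oocyte, by 0.84. lin-41 then fell by 4.24 and fbf-2, which maintains germline stem cells, by 3.68 from adults to embryos, whereas atx-2, the ataxin-2 homologue, rose by 0.83 and larp-1, a La-related protein, by 0.30.

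Genes of egg activation and of the turnover of CCCH proteins, among them kinases, eggshell factors and ubiquitin ligase parts, formed a list of 11. Of these, 9 rose and 0 fell from SP117 larvae to adults (median 1.41), and all 11 rose from larvae to embryos, where 40.2% of all genes were higher. egg-3 averaged 0.998 FPKM in SP117 larvae, under the 1 FPKM required for testing, so its call among the 11 is given as a description. Between adults and embryos 5 were higher and 4 lower in embryos, shares near those of all genes. mbk-2, the kinase that marks OMA-1 for destruction, was higher in embryos by 1.26 (106.7 FPKM in adults, 256.4 in embryos) and elc-1, an elongin C, by 1.60. The mRNA of chs-1, the eggshell chitin synthase, fell by 4.88. That of egg-4, a pseudophosphatase that binds MBK-2, fell by 3.34. zif-1, the adaptor that directs CCCH proteins to degradation, stood at 3.30 FPKM in larvae, 65.0 in adults and 70.7 in embryos.

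The PAR polarity network was read from a list of 16 PAR proteins and partners. Of these 16 genes, 11 rose and 1 fell from SP117 larvae to adults, with a median log2 ratio of 1.30. let-99, which positions the spindle, rose most, by 4.63, followed by plk-2, a polo kinase, by 2.66. cdc-42, the GTPase of the anterior PAR complex, rose by 0.36 and lgl-1 fell by 0.98. Between adults and embryos 9 of 16 were higher in embryos and 4 lower, the latter below the share of all genes, with lgl-1 (2.53) and gsk-3 (1.33) at the upper and let-99 (-1.36) and plk-2 (-2.15) at the lower end.

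mRNAs known from other work as targets of these proteins formed a list of 10 (nos-2 and zif-1 are also in the lists above), of which 9 rose and 0 fell from larvae to adults (median 4.03). The call of nos-2, which entered that test only through the adults, is among the 9. The Wnt ligand gene mom-2 stood at 2.52 FPKM in larvae, 86.5 in adults and 87.6 in embryos, and the Notch receptor gene glp-1 at 5.10, 54.3 and 47. From adults to embryos 3 of 10 were higher and 3 of 10 lower, at or below the shares of all genes. apx-1, which encodes a Delta-like ligand, fell by 0.86 and neg-1 by 1.26, and mei-1, the katanin subunit of the meiotic spindle, rose by 0.46 and rnf-5 by 0.39.

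Of 6 other genes of the CCCH family, 4 were tested from larvae to adults (2 higher, 2 lower) and 6 from adults to embryos (4 higher, 0 lower). dct-13 stood at 0.701 FPKM in SP117 young adults and 33.6 in embryos, and ccch-2 at 0.717 and 31.5, differences of 5.37 and 5.26 on the log2 scale. Both averaged under the 1 FPKM required for testing in adults and entered the test only through the embryos. Their calls, which are among the 4, could therefore only be higher and are given as a description. ccch-5 went from 6.25 to 45.4 and moe-3 from 7.28 to 19.4. From larvae to adults moe-3 fell by 2.43 and ccch-1 by 0.70. ccch-5 averaged 0.137 FPKM in SP117 larvae and entered that test only through the adults. Its call, which is among the 2 higher, is given as a description.

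The 10 genes followed one another across the 23 libraries. Each gene's log2 values had a Pearson r of 0.951 (puf-3) to 0.997 (mex-5) with the mean of the other 9, a description over libraries that share strains and stages. The genes whose pattern was most like the mean of the 10, among 14243 ranked, were cyb-2.2, pzf-1, puf-7, F02E8.4, cyb-2.1, fem-3, daf-18, T05F1.2, puf-6 and nos-2, with r from 0.9957 to 0.993. The pattern was common, since 604 genes had an r of 0.95 or more. cyb-2.2, a B-type cyclin, stood at 163.7 FPKM in SP117 adults, 84.2 in SP117 embryos and 1.91 in larvae, and puf-7, of the Pumilio family, at 169.3, 76.4 and 2.08. Without the libraries labelled OP37 embryos 5 of these 10 like genes stayed among the first 10, and with median-centred libraries 8 did.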

How the data were processed

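Poly(A) mRNA of whole worms was sequenced as stranded (dUTP) libraries. Per the study's methods, the authors aligned reads with HISAT2 (version 2.2.1 in the submitters' processing notes) and deposited FPKM from Cufflinks (2.2.1) for 20390 genes in WS220 (ce10) coordinates. The deposited tables also hold TPM, whose derivation is not given in the sources used here. Counts were not used here, so no count model was run. Dropped were 51 genes with a failed status in any library (car-1 and cpg-2 of the lists among them) and 12 mitochondrial genes, leaving 20327. Symbols matched 97.5% of identifiers.

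Genes whose FPKM averaged 1 or more over the libraries of a fit were tested on log2(FPKM + 0.1) with limma 3.58.1 (lmFit, eBayes with trend, R 4.3.3), two-sided, with Benjamini-Hochberg adjustment over all genes tested and a threshold of 0.05. A fold change on this scale understates the change of low genes. Only the groups compared entered a fit. The fit was tested on simulated data. The members and lists were chosen with earlier results of these data known. Named besides the 10 genes were the 10 most like them (Pearson r over 23 libraries) and genes drawn from the 2 highest and 2 lowest called genes of each list in each SP117 stage comparison. Alternatives were pseudocounts of 1 and 0.01, no filter, a mean FPKM of 5, TPM, quantile and median scaling, all 23 libraries in one fit, a replicate block and each library left out. Labels do not say whether replicates came from separate cultures, so p-values may measure technical spread.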

Additional observations from a re-analysis of the deposited data

Results flagged for a closer look

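In the 4 SP117 L2-L3 libraries, the lowest value of mex-3, 26.1 FPKM in replicate 1, stood apart from the other 3 (32.4, 32.8 and 33.3). Its gap to the nearest library was 0.876 of the whole range, against Dixon's critical value of 0.829 for 4 samples. Chance flags about 1 in 20 such groups, and 10 genes were examined in this group.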

How the results depend on the processing

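Between stages, every ratio of the 10 genes kept its direction and its call under all alternatives run in SP117 young adults against larvae (160 values), BC4289 young adults against larvae (140) and SP117 embryos against larvae (150), and also in OP37 against VC100 (150). The scaling moved the median of all genes: with TPM in place of FPKM it went from 0.32 to 0.90 in SP117 embryos against larvae, from -0.14 to 0.40 in BC4289 young adults against larvae and from -0.01 to 0.63 in OP37 against larvae. The share of called genes that were higher went from 34.5% to 91.5% (47.4% with quantile normalization) in OP37 against larvae, from 49.6% to 65.8% in BC4289 and from 58.3% to 70.6% (45.6% with median-centred libraries) in SP117 embryos against larvae, and in TY1916 against VC100 from 68.6% to 52.7% with median-centred libraries and 47.4% with quantile normalization. Depth limits the lowest larval values, and groups of 2 or 3 libraries limit all strain comparisons. Where 1 library of an arm was left, it was assumed to vary like the others. The cause of the changes below was not tested.

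In SP117 embryos against young adults, 4 of the 10 genes were called; the count was 2 with TPM, 7 with quantile normalization, 2 in the fit of all 23 libraries and 2 to 10 with each library left out. With TPM the log2 ratios of mex-6, pie-1, pos-1 and oma-1 were 0.02, 0.02, 0.16 and 0.10. With each library left out they ran from -0.48 to 0.01 (mex-6), -0.57 to 0.11 (pie-1), -0.50 to 0.31 (pos-1) and -0.44 to 0.14 (oma-1).

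In TY1916 against VC100, 8 of the 10 genes were called; the count was 3 with quantile normalization and 0 to 9 with each library left out. Over all genes 3660 were called, 2370 at a mean FPKM of 5 and 319 to 5326 with each library left out. In TY1916 against SP117 embryos 0 of the 10 were called, and 0 to 1 with each library left out, where puf-3 ran from -0.87 to 0.08. Over all genes 893 were called, 459 at a mean FPKM of 5, 451 with quantile normalization, 1373 in the fit of all 23 libraries and 61 to 2336 with each library left out.

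In SP117 against VC100 embryos 8 genes were called in all, 3 at a mean FPKM of 5, 66 in the fit of all 23 libraries and 0 to 21 with each library left out. mex-3 was 0.07 with TPM, 0.09 with quantile normalization and -0.34 to 0.12 with each library left out, and oma-1 was 0.05, 0.04 and -0.42 to 0.16. mex-1 ran from -0.51 to 0.11 and mex-5 from -0.60 to 0.01.

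In SP117 against BC4289 larvae 5 genes were called in all, 13 with a pseudocount of 1, 2 with 0.01, 3 at a mean FPKM of 5, 8 with quantile normalization, 26 in the fit of all 23 libraries and 0 to 7 with each library left out. With TPM mex-5 was 0.02, mex-6 0.08 and oma-1 0.03. With each library left out mex-5 ran from -0.43 to 0.08, pie-1 from -0.19 to 0.38 and puf-3 from -0.47 to 1.00. In young adults of these strains 14 genes were called, 9 without a filter, 9 at a mean FPKM of 5, 36 with median-centred libraries and 0 to 378 with each library left out. pie-1 was 0.01 with quantile normalization and -0.12 to 0.07 with each library left out. For the difference between these strains in the change with stage, 4 genes were called in all, 7 with a pseudocount of 1, 7 with 0.01, 9 without a filter, 0 with quantile normalization (limma), 2 with median-centred libraries and 0 to 10 with each library left out. There puf-3 was 0.05 with a pseudocount of 1, 0.03 with quantile normalization and -0.84 to 0.63 with each library left out, where mex-3 ran from -0.34 to 0.04 and pie-1 from -0.42 to 0.15.

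In OP37 against larvae 0 of the 10 genes were called and 1 with TPM. Over all genes 1383 were called, 4407 with TPM, 2083 in the fit of all 23 libraries and 383 to 2658 with each library left out. With TPM mex-5 was 0.40, mex-6 0.18, oma-1 0.29, spn-4 0.19 and puf-3 0.54. pos-1 was -0.06 with a pseudocount of 1, -0.01 with quantile normalization and -0.02 with median-centred libraries, oma-2 was -0.00 with a pseudocount of 1, and puf-3 was 0.38 with quantile normalization. With each library left out the ranges were -0.20 to 0.47 (mex-1), -0.54 to 0.31 (mex-5), -0.87 to 0.00 (mex-6), -0.80 to 0.22 (oma-1), -0.45 to 0.33 (puf-3), -0.34 to 0.25 (pos-1) and -0.22 to 0.39 (oma-2). Of the 10 genes most like the set, 5 were kept without OP37.

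The labels do not tie a replicate number to a shared batch, so no fit above has a block. In TY1916 against VC100 the deviations of same-numbered libraries correlated at -0.204 to 0.089, and in SP117 young adults against larvae at -0.052 to 0.091. Both same-numbered pairs correlated above 0 in BC4289 young adults against larvae (0.073 and 0.138) and in TY1916 against SP117 embryos, where 2 pairs are too few to settle a pairing. With the replicate number as a block, 0 of the 10 genes and 917 genes in all were called in TY1916 against VC100, 10 of 10 and 5652 in TY1916 against SP117 embryos (2 pairs, correlations of 0.243 and 0.512), 15 genes in SP117 against VC100 embryos, 2106 in OP37 against larvae and 0 for the difference between strains in the change with stage. Under the block mex-5, mex-6, oma-1 and puf-3 were 0.32, 0.04, 0.29 and 0.28 in OP37 against larvae. The block changed no other call of the 10 genes.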
